A study of Mus musculus with 574 samples.

Results

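Lcn2 encodes lipocalin 2, a secreted protein that binds the iron-carrying siderophores of bacteria. It is described here with 8 other genes, Lrg1, Emilin2, Cited4, Degs2, Dgat2, Dmkn, Sgms2 and Gstm1, in GMPs, the granulocyte/macrophage progenitors of the bone marrow, from mice given 5-fluorouracil (5-FU). These are 9 of the 46078 gene rows of the count tables. They were chosen by their own measured values, namely a higher level on days 8 and 10, their coupling with Lcn2 from cell to cell, and a later decline. Their levels, shares of cells and correlations are therefore given as a description, with no test. Emilin2 was listed with these genes but did not go with Lcn2 from cell to cell, as the correlations show.

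In neutrophils, lipocalin 2 is stored in the secondary granules, which are filled later in maturation than the primary granules that carry myeloperoxidase and elastase. Both Lcn2 and Lrg1 are also acute-phase genes that respond in many tissues to interleukin 1, interleukin 6 and NF-kappaB, and C/EBP factors drive granule genes in the granulocyte lineage. GMPs stand before that maturation and give rise to neutrophils and monocytes. 5-FU blocks thymidylate synthase and kills dividing cells, after which the marrow is rebuilt from progenitors.

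The cells came from C57Bl/6 mice aged 6 to 12 weeks that received 5-FU once at 150 mg/kg or PBS, and marrow was taken on days 0, 8, 10, 12 and 14. The labels give 5-FU as the treatment of all cells, day 0 included, and do not say whether day 0 mice were injected, whether bones were crushed or flushed for a given set, or how many mice a set holds. Cells enriched for c-Kit were sorted as lineage-negative, c-Kit+, Sca-1-, CD34+ and FcγR+, 1 to a well of a 96-well plate, and sequenced full length without molecular identifiers. There were 6 sets: 1 each on days 0, 10, 12 and 14, and 2 on day 8 (first and second set below).

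Cells were kept from 50000 reads in genes and 1000 detected genes upwards, which left 500 of 573. Day 0 kept 92, the day 8 sets 90 and 93, day 10 93, day 12 85 and day 14 47. The shallowest cell kept held 50015 reads and the deepest cell left out for its depth 49783 reads. Median depth ran from 79451 reads on day 14 to 289938 in the first day 8 set. Xist, the RNA of the silenced X chromosome, stood at 180 and 156 CPM (TMM-scaled read counts relative to all reads in genes) on days 0 and 12 and at 0.108 to 1.66 CPM in the other sets. The Y-linked gene Eif2s3y ran the other way, with 0.781 and 1.11 CPM against 55.4 to 83 CPM. Days 0 and 12 thus carry female signals and days 8, 10 and 14 male ones, so sex and day cannot be told apart in any comparison of days 8, 10 or 14 with days 0 or 12. Comparisons within a sex signal are day 12 against day 0, and days 8, 10 and 14 among themselves. The nuclear RNAs Malat1 and Neat1, which move with RNA quality, were lower on days 8 and 10 (Malat1 450 CPM on day 0 against 172 and 259 in the day 8 sets and 199 on day 10), and Slc34a2 took 78846 to 376664 CPM, most on day 14. The part of these measures in the results below was not tested, but the shares of cells with an Lcn2 read were also counted without Slc34a2, as given further below. Of the genes of the sort gate, Kit stood at 52 to 102 CPM and Cd34 at 353 to 583 CPM in the 6 sets. Ly6a, which encodes Sca-1, stood at 3.84 to 13 CPM. Fcgr3, a receptor gene of the FcγR gate, fell from 296 CPM on day 0 to 106 and 117 CPM in the day 8 sets. It stood at 363, 276 and 343 CPM on days 10, 12 and 14. Its log2 fold change for day 8 against day 0 was -1.41 (SE 0.25). That of Fcgr2b, also a gene of this gate, was -0.18 (SE 0.26). The part of the lower Fcgr3 in the results below was not tested.

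Lcn2 stood several-fold higher on days 8 and 10 than on the other days, in level and in the share of cells with a read. In the summed counts of each set it was at 14.1 CPM on day 0, 84.2 and 100 CPM in the 2 day 8 sets, 152 CPM on day 10, 22.4 CPM on day 12 and 32.9 CPM on day 14. These rest on 234, 2754, 2783, 4222, 384 and 132 reads. Both day 8 sets and the day 10 set lay above all 3 other sets, and the gap between the 2 day 8 sets was 0.26 on the log2 scale. The log2 fold change was 2.71 (SE 0.32) for day 8 against day 0 and 3.43 (SE 0.35) for day 10 against day 0. Levels of a summed set cannot separate fewer cells of a type from less RNA per cell.

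**Figure D1:**
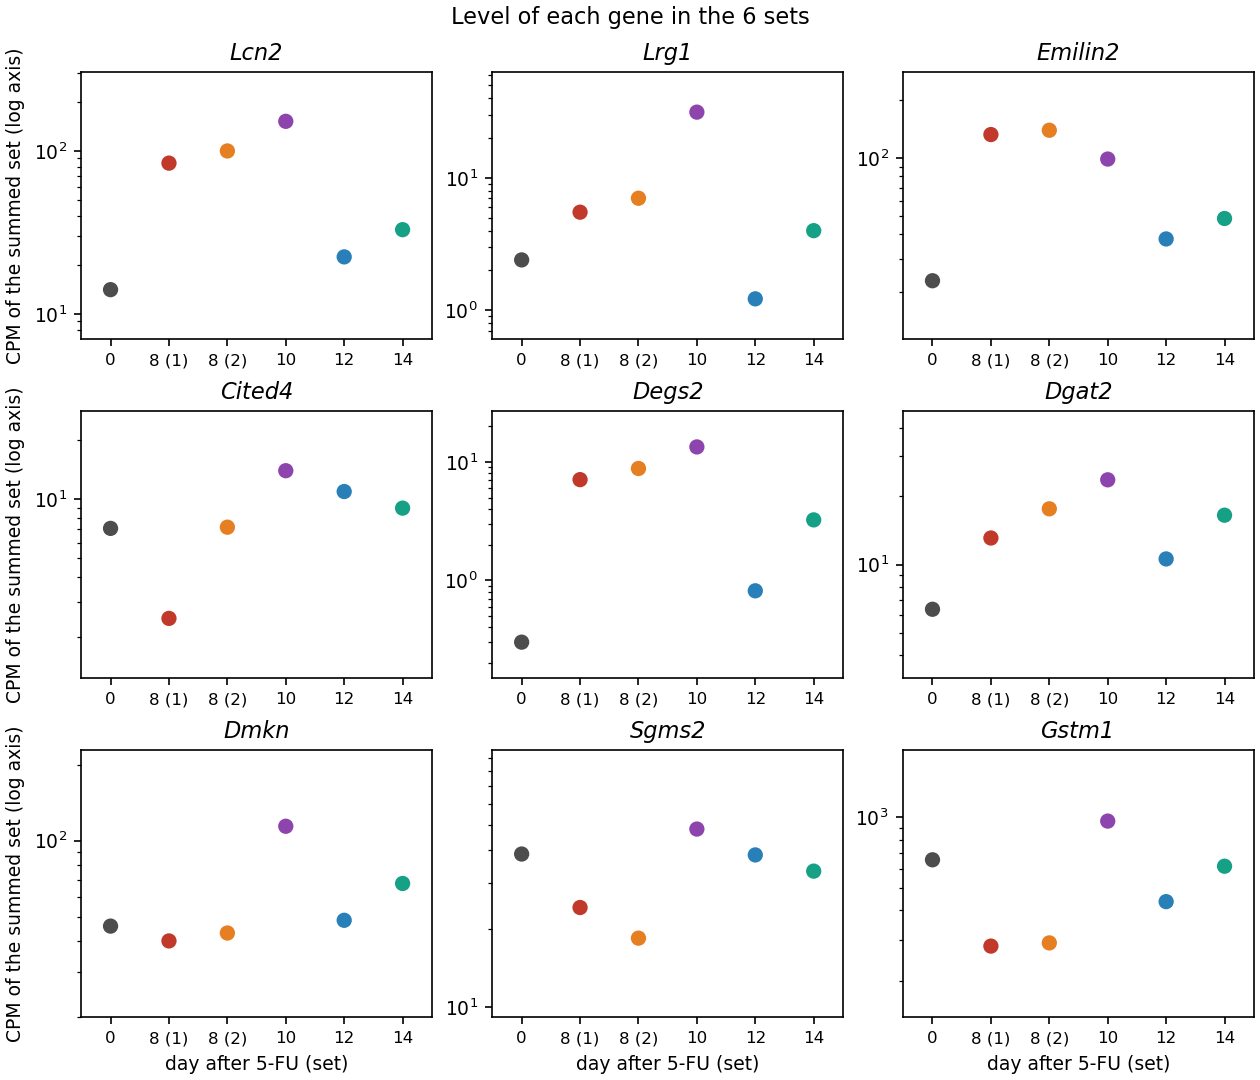
Level of each of the 9 genes in the summed counts of each set (CPM, log axis; each panel has its own range), with the day after 5-FU and, for day 8, the set on the horizontal axis. Each point is 1 set, so no error is drawn; Lcn2 stands at 84.2 and 100 CPM on day 8 and 152 CPM on day 10, above the 14.1, 22.4 and 32.9 CPM of days 0, 12 and 14.

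After thinning every kept cell to 50000 reads, an Lcn2 read was found in 25% of day 0 cells (23 of 92; exact 95% binomial interval 16.6 to 35.1%). The share was 70% (59.4 to 79.2%) and 60.2% (49.5 to 70.2%) in the day 8 sets and 79.6% (69.9 to 87.2%) on day 10. It was 32.9% (23.1 to 44%) on day 12 and 25.5% (13.9 to 40.3%) on day 14. The intervals of both day 8 sets and of day 10 do not overlap those of days 0, 12 and 14. They cover counting error only, since cells of a set are not independent samples and reads are not single molecules. As Lcn2 was chosen for its higher level on days 8 and 10, the gap is a description and not a test.

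Cells with a read also held more Lcn2 on days 8 and 10. Without thinning, the median level among cells with a read was 31.4 CPM on day 0, 98.1 and 111 CPM in the day 8 sets, 149 CPM on day 10, 44 CPM on day 12 and 42.1 CPM on day 14. At least 5 thinned reads were found in 38.9% and 33.3% of the cells of the day 8 sets and 53.8% of day 10 cells, against 4.35%, 7.06% and 8.51% for days 0, 12 and 14. The summed levels of days 12 and 14 leaned on single cells: 1 cell held 30.7% of the Lcn2 reads on day 12 and 1 cell 36.4% on day 14, against 8.13 to 12.0% in the other 4 sets.

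**Figure D2:**
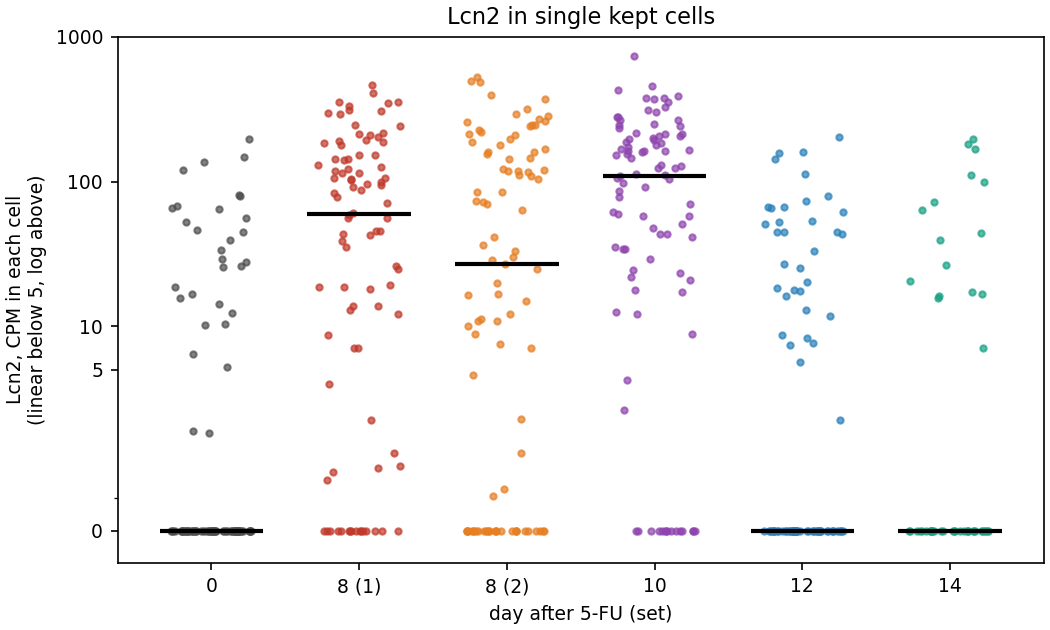
Lcn2 in each of the 500 kept cells (CPM without thinning, linear below 5 and log above), by day after 5-FU and set; points are cells, spread sideways at random, and black bars are medians over all cells of a set. The medians are 59.5 and 26.9 CPM in the day 8 sets and 109 CPM on day 10, and 0 on days 0, 12 and 14.

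Lcn2 stood lower again on days 12 and 14, at summed levels above that of day 0. Against day 10, the log2 fold change was -2.76 (SE 0.33) on day 12 and -2.20 (SE 0.34) on day 14. Against day 8, with the same sex signal, day 14 stood at -1.49 (SE 0.30) and day 10 at 0.72 (SE 0.26). Day 12 against day 0, again within a sex signal, was 0.67 (SE 0.33), and day 14 against day 0, across sex signals, was 1.23 (SE 0.34). The day 14 sum rests on 132 reads, 36.4% of them from 1 cell, which the SE does not cover. The share of thinned cells with an Lcn2 read was 25.5% on day 14 and 25% on day 0. The mean over cells, without thinning, was 23.4 CPM on day 14 and 15.9 CPM on day 0.

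The scale matters to the size of these values. Per spike-in read, the median cell of day 0 held 40.9 reads in genes, against 78.9 and 71.8 for the day 8 sets, 59 for day 10, 49.9 for day 12 and 42.5 for day 14. Counted per 1000 spike-in reads, Lcn2 was at 0.580, 7.15, 7.87, 9.46, 0.977 and 0.993 reads in the same order of sets. On that scale, which assumes an equal spike-in in every well, log2 levels averaged over the sets of a day shift alike for every gene. The shift is 0.98 upwards in day 8 against day 0 and 0.59 in day 10 against day 0. Fold changes of the fit can move by another amount where the day 8 sets differ. Cited4, for example, went from -0.56 to 0.23 in day 8 against day 0.

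The promoters of Lcn2, Lrg1 and Degs2 are shown because these 3 genes had the largest log2 fold changes of the 9 between day 10 and day 0. Each run is the 250 bases before a RefSeq start on GRCm38.p6, 5′ to 3′ on the strand of the gene, all 3 on the minus strand: chr2:32387740-32387989 for Lcn2, chr17:56121947-56122196 for Lrg1 and chr12:108702307-108702556 for Degs2. Capitals mark matches to the letters searched on both strands.
Lcn2: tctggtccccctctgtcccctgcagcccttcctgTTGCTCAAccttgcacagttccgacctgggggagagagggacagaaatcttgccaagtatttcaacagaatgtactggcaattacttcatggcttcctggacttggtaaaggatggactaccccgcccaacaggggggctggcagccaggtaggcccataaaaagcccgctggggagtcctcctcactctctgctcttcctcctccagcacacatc
Lrg1: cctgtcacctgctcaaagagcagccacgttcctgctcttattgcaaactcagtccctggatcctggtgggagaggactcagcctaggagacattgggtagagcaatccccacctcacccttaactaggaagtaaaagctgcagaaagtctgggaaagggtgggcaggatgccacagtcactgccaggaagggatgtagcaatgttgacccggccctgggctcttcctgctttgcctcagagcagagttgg
Degs2: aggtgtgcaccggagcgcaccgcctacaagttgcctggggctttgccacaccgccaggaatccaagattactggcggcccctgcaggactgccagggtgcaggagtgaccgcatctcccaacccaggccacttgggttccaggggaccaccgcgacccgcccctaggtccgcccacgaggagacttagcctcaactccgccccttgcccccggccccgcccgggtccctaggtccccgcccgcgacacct
The letters searched were TTGCNNAA for C/EBP, TTCNNNGAA for STAT, CCGGAAGT for ETS, TATAAA for a TATA box and, for NF-kappaB, GGG and TTTCC with 2 bases of any kind between them. Lcn2 had 1 C/EBP match, 216 bases before the start, and the other windows shown had no match to any of the 5. Of 32536 promoters of this length, 9.57% held the C/EBP letters, 7.04% the STAT, 1.40% the NF-kappaB, 2.90% the ETS and 12.3% the TATA letters. Promoters of 8 of the 9 genes were in the RefSeq table, with no entry used for Dgat2. Among the other genes, the Dmkn promoters held the C/EBP letters too, 1 of 2 Emilin2 promoters the STAT and ETS letters, 1 of 6 Sgms2 promoters the STAT letters, and Cited4 and 1 of 2 Gstm1 promoters a TATA box.

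Of the other secreted proteins, Lrg1 encodes leucine-rich alpha-2-glycoprotein 1, which binds endoglin and alters TGF-beta signalling. The gene lies at chr17:56119678-56122001 on the minus strand (GRCm38), and Lcn2 at chr2:32384633-32388252, also on the minus strand. Lrg1 stood at 2.40 CPM on day 0, 5.5 and 7.01 CPM in the day 8 sets, 31.3 CPM on day 10, 1.22 CPM on day 12 and 3.99 CPM on day 14. Its step thus came mainly between days 8 and 10, with a log2 fold change of 2.32 (SE 0.48) for day 10 against day 8 and 3.70 (SE 0.66) for day 10 against day 0. The latter was 2.71 in thinned cells and 5.11 in cells with at least 200000 reads and 2000 genes. A read was found in 39.8% of thinned day 10 cells (29.8 to 50.5%) and in 3.53 to 15.1% of cells of the other sets. By day 12 it was lower than on day 10 by a log2 fold change of -4.67 (SE 0.70), the largest decline of the 9 genes, with 21 reads left in 4 cells. In the deeper cells it was -7.34, on 2 reads left on day 12.

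Dmkn encodes dermokine, a secreted protein known from the epidermis (chr7:30763756-30781063, plus strand). It stood at 45.8 CPM on day 0, 40 and 43 CPM in the day 8 sets, 114 CPM on day 10, 48.3 CPM on day 12 and 67.6 CPM on day 14. The day 10 set stood above all others, with a log2 fold change of 1.31 (SE 0.32) against day 0 and 1.45 (SE 0.26) against day 8, and the day 8 sets lay within 0.10 of each other on the log2 scale. A read was found in 75.3% of thinned day 10 cells (65.2 to 83.6%) against 47.1 to 57.4% elsewhere. Of a list of 12 epithelial and skin genes, which summed to 18.3 to 29.4 CPM in the 6 sets, Krt18 made up the most and the basal keratin genes Krt5 and Krt14 stood at 0 to 0.250 CPM. Per 1000 spike-in reads the day 8 sets were above day 0, at 3.40 and 3.36 against 1.89 reads, and day 10 was highest at 7.08 reads.

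Emilin2, an extracellular matrix glycoprotein gene (chr17:71252172-71311978, minus strand), had another time course. It stood at 23 CPM on day 0, 132 and 139 CPM in the day 8 sets, 98.5 CPM on day 10, 37.9 CPM on day 12 and 48.4 CPM on day 14. It was the only gene of the 9 with its highest level on day 8, and the log2 fold change was 2.56 (SE 0.31) for day 8 and 2.10 (SE 0.32) for day 10, each against day 0. It was also the most widespread of those with a gain on day 8: a read was found in 92.2% and 89.2% of thinned day 8 cells and 81.7% of day 10 cells, against 31.5%, 32.9% and 36.2% on days 0, 12 and 14.

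Among the lipid enzymes, Degs2 encodes the sphingolipid hydroxylase and desaturase that makes phytoceramides (chr12:108678711-108702315, minus strand). It was close to absent on day 0, with 5 reads in 4 of 92 cells or 0.30 CPM, and reached 7.09 and 8.81 CPM in the day 8 sets, 13.4 CPM on day 10, 0.815 CPM on day 12 and 3.24 CPM on day 14. The 3 high sets did not overlap the others. The log2 fold change was 4.70 (SE 0.86) for day 8 and 5.45 (SE 0.91) for day 10 against day 0, and -4.03 (SE 0.81) for day 12 against day 10. The day 14 value rests on 13 reads, 92.3% of them from 1 cell. A read was found in 22.2% and 17.2% of thinned day 8 cells and 20.4% of day 10 cells, against 2.17 to 4.26% elsewhere, so even at its highest it marked a minority of cells. Of its exon bases, 278 (10.8%) overlap genes on the other strand, Evl and Gm33467, and these libraries do not mark strand. Evl itself stood at 1.13 to 4.24 CPM, without a higher level on days 8 and 10.

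Sgms2, the plasma membrane sphingomyelin synthase gene (chr3:131318985-131491411, minus strand), stood at 38.6 CPM on day 0, 24.1 and 18.4 CPM in the day 8 sets, 48.1 CPM on day 10, 38.3 CPM on day 12 and 33.2 CPM on day 14. It was lower on day 8 than on day 0 by this scale (log2 fold change -0.86, SE 0.30), while day 10 differed from day 0 by less than its error (0.31, SE 0.36). Per 1000 spike-in reads it was at 1.59 reads on day 0 and at 2.04 and 1.44 on day 8, so on this scale the day 8 sets lay on either side of day 0, whereas day 10 was highest on both (2.99 reads). Dgat2, the gene of an acyltransferase of the last step of triglyceride synthesis (chr7:99153658-99182719, minus strand), stood at 6.37 CPM on day 0, 13.1 and 17.6 CPM in the day 8 sets, 23.6 CPM on day 10, 10.6 CPM on day 12 and 16.5 CPM on day 14. Its log2 fold change against day 0 was 1.27 (SE 0.44) on day 8 and 1.89 (SE 0.50) on day 10. These were 0.59 and 1.01 in thinned cells, and day 8 was 2.24 by spike-in reads. The day 14 level lay within the range of the 2 day 8 sets, but on 66 reads from 5 cells.

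Gstm1 encodes a mu-class glutathione S-transferase, a detoxifying enzyme (chr3:108012255-108017973, minus strand), and Cited4 a co-activator that binds CBP and p300 (chr4:120666572-120667820, plus strand). Gstm1 was read in nearly all cells, 79.6 to 97.8% after thinning, and stood at 657 CPM on day 0, 282 and 291 CPM in the day 8 sets, 960 CPM on day 10, 436 CPM on day 12 and 617 CPM on day 14. It was thus lowest on day 8 and highest on day 10, with log2 fold changes of -1.20 (SE 0.27) for day 8 against day 0 and 1.75 (SE 0.26) for day 10 against day 8. Per 1000 spike-in reads the day 8 sets were close to day 0, at 23.9 and 22.8 against 27.1 reads, and day 10 at 59.8 reads. Reads of near-identical genes of the Gstm cluster, among them the pseudogene Gstm2-ps1, cannot be assigned with certainty. Cited4 stood at 7.09 CPM on day 0, 2.48 and 7.19 CPM in the day 8 sets, 13.9 CPM on day 10, 10.9 CPM on day 12 and 8.98 CPM on day 14. Its day 8 sets lay on either side of day 0, and the log2 fold change of -0.56 (SE 0.55) was 0.03 without the first set, -1.52 without the second, 0.23 when scaled by spike-in reads, and 0.41 in the deeper cells. Day 10 against day 0 was 0.97 (SE 0.64), or 1.73 in the deeper cells and 1.56 by spike-in reads, and 29% of thinned day 10 cells had a read against 6.38 to 15.3% elsewhere.

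Set side by side, day 10 was the highest set for 8 of the 9 genes, and all 9 passed the count filter of the fit. The genes were chosen for a higher level on days 8 and 10, so that count largely follows from the choice. How many of all genes tested were highest on day 10 was not counted. Lcn2, Lrg1, Emilin2, Degs2 and Dgat2 stood above day 0 on both day 8 and day 10. Dmkn, Sgms2 and Gstm1 stood below day 0 on day 8 and above it on day 10, except that scaling by spike-in reads put Dmkn and Sgms2 above day 0 on day 8 (log2 fold changes 0.84 and 0.11). Without that scaling, Dmkn on day 8 (-0.14, SE 0.27) and Sgms2 on day 10 (0.31, SE 0.36) differed from day 0 by less than their SE. Of the 9 genes, thinned cells held a median of 4 in both day 8 sets and 5 on day 10, against 3 on each of the other days. At least 5 of the 9 were read in 7.61% of day 0 cells, 43.3% and 36.6% of day 8 cells, 55.9% of day 10 cells, 14.1% of day 12 cells and 12.8% of day 14 cells. These numbers per cell also follow from the choice of the genes, and no other group of genes was counted beside them. Per kilobase of annotated exon, the day 10 level ran from 5.20 CPM for Degs2 and 7.65 CPM for Dgat2 to 57.9 CPM for Lcn2 and 652 CPM for Gstm1.

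From cell to cell, Gstm1 had the highest rho with Lcn2 of the 8 other genes in 4 of the 6 sets, with Dgat2 (0.21) above it on day 12 and Sgms2 (0.40) on day 14. Spearman's rho over thinned cells was 0.41 on day 0 (n = 92), 0.52 (n = 90) and 0.75 (n = 93) on day 8, 0.55 on day 10 (n = 93), 0.16 on day 12 (n = 85) and 0.35 on day 14 (n = 47). Dmkn followed, with 0.35 and 0.56 on day 8 and 0.37 on day 10, against -0.09 to 0.10 on the other days. Sgms2 had 0.24 and 0.46 on day 8 and 0.36 on day 10, and 0.24, 0.11 and 0.40 on days 0, 12 and 14. Degs2, Lrg1, Dgat2 and Cited4, which had reads in fewer cells, lay between 0.21 and 0.40 in these 3 sets. Emilin2 stood apart with -0.03, 0.15 and -0.04, and with -0.22 on day 0.

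For scale, 8082 other genes detected in 20% or more of the thinned cells of each of the 3 sets had a median rho with Lcn2 of 0.01 and 0.04 in the day 8 sets and 0.05 on day 10, and a 95th percentile of 0.23, 0.29 and 0.24 in the same order. By the lowest rho of these 3 sets, Gstm1 ranked 2, Dmkn 28, Sgms2 83, Dgat2 86 and Emilin2 3500 among these genes. Weak correlations of genes with few reads are not read further. The points of a set share its mice and handling, and rho of Lcn2 with the reads in genes per spike-in read of the cell was 0.12, 0.36, 0.55, 0.16, 0.10 and 0.31 in the order of sets. With the share of reads taken by Slc34a2 it was -0.18, -0.07, -0.37, -0.32, -0.05 and -0.28. Their part in the coupling was not tested.

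**Figure D3:**
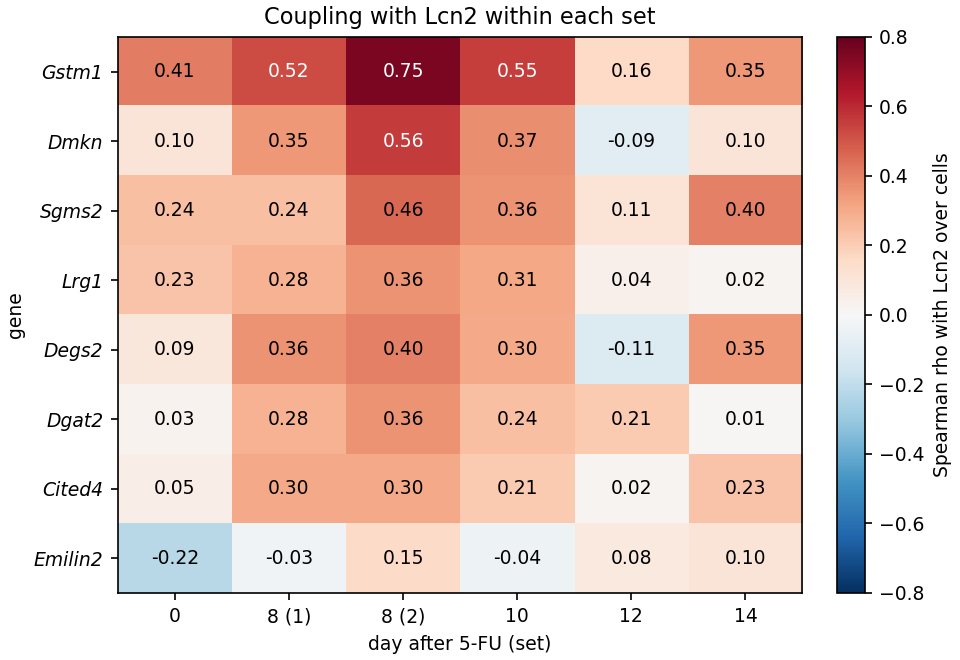
Spearman's rho between Lcn2 and each of the 8 other genes over the kept cells of a set, thinned to 50000 reads; rows are genes, columns are days after 5-FU with the set of day 8, and colour and print give rho. Gstm1 has the highest value in 4 of 6 sets, from 0.52 to 0.75 on day 8, and the row of Emilin2 stays between -0.22 and 0.15.

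The joint counts show the same contrast between Emilin2 and the other genes. On day 10, 74 thinned cells had an Lcn2 read and 19 had none. Degs2 was read in 25.7% of the former and in 0 of the 19 latter, which allows a share of up to 15.8%. On day 8, 19 of 20 cells with Degs2 in the first set and 15 of 16 in the second also had Lcn2. Sgms2 was read in 62.2% of day 10 cells with Lcn2 and 21.1% of those without, Lrg1 in 43.2% and 26.3%, Dgat2 in 35.1% and 15.8%, and Cited4 in 33.8% and 10.5%. Emilin2 was read in 81.1% and 84.2%, so its presence did not go with that of Lcn2. On day 0, where Lcn2 was read in 23 cells, only 3 of these had Emilin2 (13%), against 26 of the 69 without Lcn2 (37.7%).

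**Figure D4:**
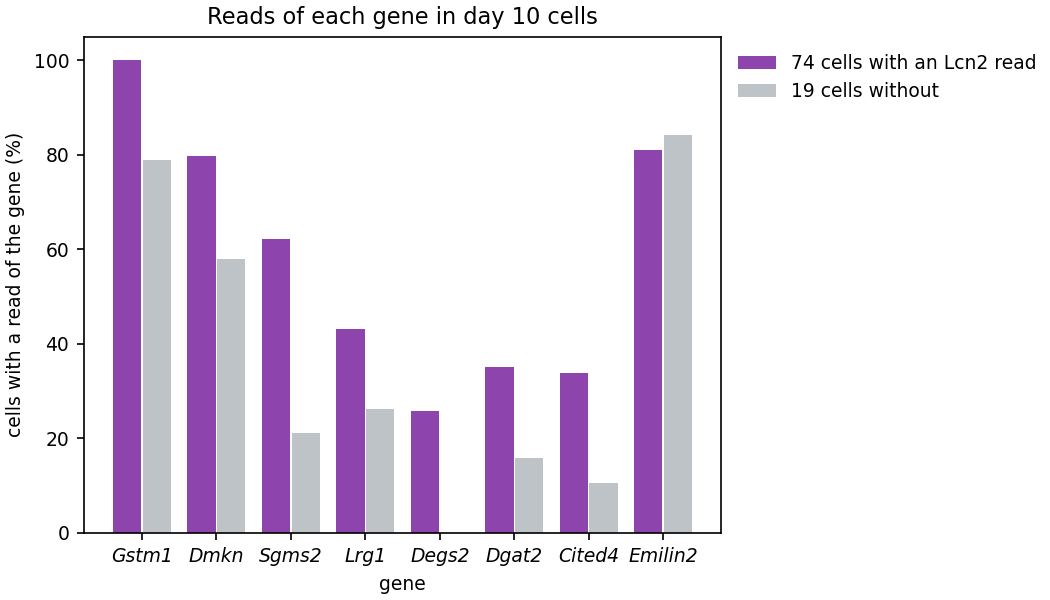
Share of day 10 cells with a read of each gene, in percent from 0, after thinning to 50000 reads; dark bars are the 74 cells with an Lcn2 read and light bars the 19 cells without. Degs2 is at 25.7% and 0, Sgms2 at 62.2% and 21.1%, and Emilin2 at 81.1% and 84.2%.

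Coupling among the 8 other genes varied with the gene. Over the 21 pairs without Emilin2, the median rho was highest in the second day 8 set (0.31) and on day 10 (0.29), followed by 0.21 in the first day 8 set, and it was 0.13, 0.18 and 0.21 for days 0, 12 and 14. All 21 were above 0 on day 10. Lrg1 was barely coupled with several of them on day 8, with -0.07 and 0.05 for Sgms2, 0.05 and -0.02 for Degs2, 0.05 and 0.01 for Dgat2 and 0.11 and -0.07 for Cited4, and with 0.15 to 0.41 on day 10. Dmkn and Gstm1 had 0.61 and 0.59 on day 8 and 0.50 on day 10. Over the 7 pairs with Emilin2, the median lay between -0.14 and 0.02 in the 6 sets.

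The genes outside the 9 whose pattern over cells was most like that of Lcn2 were named by the highest value of the lowest rho in the day 8 and day 10 sets. They were Ctsg (lowest rho 0.52), Ms4a3 (0.51), Prtn3 (0.49), Prss57 (0.47), Elane (0.46), Calr (0.45), Mpo (0.44), P4hb (0.44), Gstm2-ps1 (0.43), Arhgdib (0.43), Rgcc (0.43) and Fcgr3 (0.43). Of these, Ctsg, Prtn3, Prss57 and Elane encode serine proteases of the neutrophil, Mpo encodes myeloperoxidase and Fcgr3 a receptor of the FcγR gate. The 5 genes most opposite to Lcn2 were Gata2 (highest rho -0.31), Serinc3 (-0.27), Meis1 (-0.25), Selplg (-0.25) and Prdx4 (-0.24). Gata2 and Meis1 encode transcription factors of primitive progenitors.

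Although Lcn2 went with Elane from cell to cell, the levels of the 2 genes went apart between days. Elane, the neutrophil elastase gene, stood at 17289 CPM on day 0, 2594 and 2894 CPM in the day 8 sets, 12127 CPM on day 10, 15598 CPM on day 12 and 19321 CPM on day 14. Cells were therefore split at 5000 CPM of Elane in thinned reads, a value chosen after the data were seen, with 42 of 500 cells between 4000 and 6000 CPM. Above it lay 74 of 92 cells on day 0, 16 of 90 and 23 of 93 on day 8, 62 of 93 on day 10, 63 of 85 on day 12 and 29 of 47 on day 14. Among these Elane-high cells, Lcn2 was read in 31.1% on day 0 (20.8 to 42.9%), in 93.8% (69.8 to 99.8%) and 100% (85.2 to 100%) on day 8, in 93.5% on day 10 (84.3 to 98.2%), in 33.3% on day 12 (22 to 46.3%) and in 41.4% on day 14 (23.5 to 61.1%). The exact 95% intervals of days 8 and 10 lie above those of days 0, 12 and 14. These intervals cover counting error over cells only, not differences between mice. Lcn2 was chosen for its higher level on days 8 and 10, so the gap is a description and not a test.

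Below 5000 CPM of Elane, days 8 and 10 again had the highest shares. Lcn2 was read there in 0 of 18 cells on day 0 and in 0 of 18 on day 14 (exact 95% interval 0 to 18.5% in each). It was read in 64.9% (52.9 to 75.6%) and 47.1% (35.1 to 59.4%) of the 74 and 70 such cells on day 8, in 51.6% of 31 on day 10 (33.1 to 69.8%) and in 31.8% of 22 on day 12 (13.9 to 54.9%). Day 12 overlapped days 8 and 10 here. Emilin2 was read in 90.5% and 87.1% of the Elane-low day 8 cells and in 100% and 95.7% of the Elane-high ones, so it was high in both. Degs2 was read in 19 of 62 Elane-high cells on day 10 (30.6%) and in 0 of 31 Elane-low cells, which allows up to 9.68%.

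**Figure D5:**
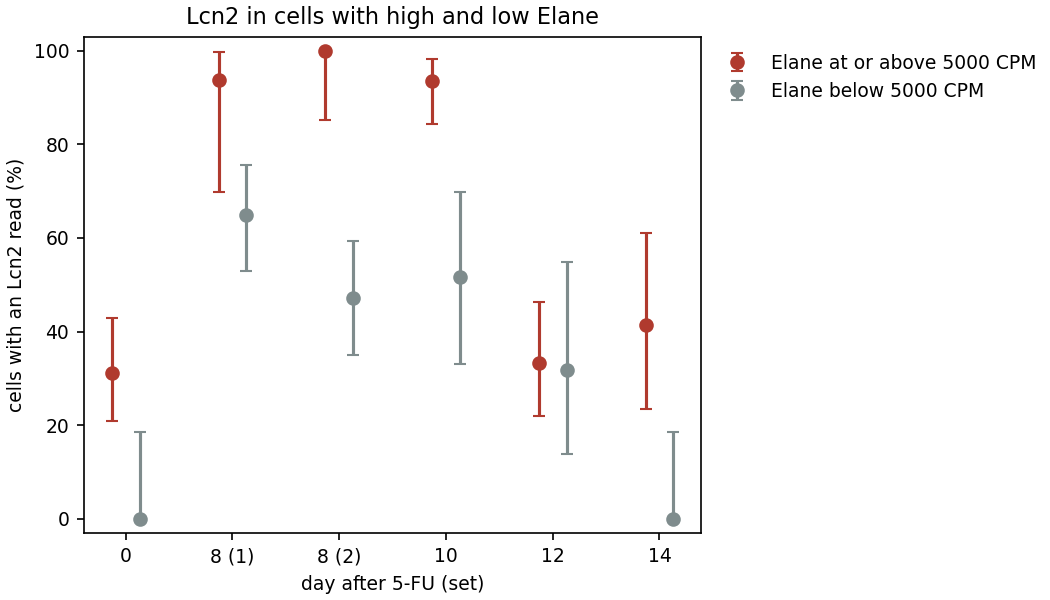
Share of cells with an Lcn2 read, in percent, among cells at or above and below 5000 CPM of Elane, by day after 5-FU and set, thinned to 50000 reads; bars are exact 95% binomial intervals, for counting error only. Elane-high cells stand at 93.5 to 100% on days 8 and 10 and at 31.1 to 41.4% on days 0, 12 and 14.

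Marker lists of other cells differed between the same sets. The 12 stem and multipotent progenitor genes summed to 321 CPM on day 0, 846 and 1261 CPM in the day 8 sets, 828 CPM on day 10, 349 CPM on day 12 and 427 CPM on day 14. Ifitm1 alone made up much of this, at 39.1 CPM on day 0, 437 and 798 CPM in the day 8 sets and 501 CPM on day 10. Without it the other 11 genes summed to 281 CPM on day 0, 409 and 462 CPM in the day 8 sets, 327 CPM on day 10, 312 CPM on day 12 and 334 CPM on day 14. The 12 monocyte genes ran the other way, with 6913 CPM on day 0, 1585 and 712 CPM in the day 8 sets, 2258 CPM on day 10, 5622 CPM on day 12 and 6961 CPM on day 14. Ly6c2 alone made up much of this, at 4942 CPM on day 0, 735 and 241 CPM in the day 8 sets and 1236 CPM on day 10. The median log2 fold change of the 12 was -1.71 for day 8 against day 0. Not all of them fell: Ccr2 had 95.9 CPM on day 0 and 143 and 65.2 CPM on day 8, and S100a4 had 1.68 CPM against 3.15 and 4.33 CPM. The 10 erythroid and megakaryocyte genes were highest on day 8, at 164 and 219 CPM against 40.7 to 69.2 CPM in the other sets. The 10 GMP genes, Elane and Mpo among them, summed to 38646 and 29929 CPM on day 8 and to 78765 to 84963 CPM in the other sets, so day 10 had a GMP sum like that of day 0 together with the highest Lcn2. Mpo and Elane made up most of these sums, and the median log2 fold change of the 10 was -0.44 for day 8 against day 0. Ms4a3 (1165 CPM on day 0, 1495 and 1492 CPM on day 8) and Cebpa (62.4 CPM against 71.9 and 94.1 CPM) did not fall. No gene of these 4 lists was at 0 in all 6 sets. Their part in the levels of Lcn2 and the genes listed with it was not tested.

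The partial rho of Gstm1 with Lcn2, given Elane, was 0.02 in the first day 8 set, 0.26 in the second and 0.35 on day 10. On days 0, 12 and 14 it was 0.15, 0.03 and -0.08. Gstm1 itself had a rho with Elane of 0.83 and 0.82 in the day 8 sets and 0.79 on day 10. For Degs2 the partial rho in the 2 day 8 sets and on day 10 was 0.19, 0.21 and 0.21. For Dmkn it was -0.04, 0.21 and 0.17, for Dgat2 0.03, 0.15 and 0.06, and for Cited4 0.19, 0.14 and -0.04. For Lrg1 it was 0.21, 0.04 and 0.10, and for Sgms2 it was -0.01, 0.04 and 0.18. Emilin2, which was not coupled with Lcn2, had -0.03, 0.18 and -0.04. The part of Elane in the coupling was not tested.

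Other genes of the pathways around the 9 were taken from 9 lists, without the 9 genes themselves. Of 171 genes, 142 were tested with edgeR over all 15145 genes. On day 8, 7 were higher and 12 lower than on day 0, or 4.93% and 8.45% of those tested, beside 2.61% and 3.02% of all genes tested. The median log2 fold change was -0.03 over the lists and 0.01 over all genes. On day 10, 4 were higher and 1 lower than on day 0, or 2.82% and 0.704%, beside 0.687% and 0.766% of all genes tested, with medians of 0.10 and 0.00. DESeq2 called 3 and 5 on day 8 and 1 and 0 on day 10, and edgeR on thinned cells called 0 on both days. The thinned fit also called 0 in the other comparisons below, and its calls over all genes were not counted. Xist, at a log2 fold change of -7.63 for day 8 against day 0, did not pass under every alternative either. The 0 of thinned cells is therefore not read as a result about the lists. With 1 set per day other than day 8, p-values rest on the spread between the 2 day 8 sets, which the labels do not say came from separate mice and which may be technical.

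The list of other secondary and tertiary granule genes was split: 10 of its 20 genes, Ltf (lactoferrin) and Camp among them, stayed under 5 CPM in all 6 sets, while Hp, Anxa1 and S100a8 were among the 10 that reached it in at least 1 set, and the list summed to 547 to 1291 CPM. Of 11 tested genes of this list, 1 rose and 3 fell on day 8 (median -0.57), and 2 rose on day 10 (median 0.46). As shares these are 9.09%, 27.3% and 18.2%, beside 2.61%, 3.02% and 0.687% of all genes tested. DESeq2 called 0 higher and 1 lower on day 8 and 0 on day 10, so the day 10 calls rest on edgeR. The 1 on day 8 was S100a9, a calgranulin gene chosen after its values were seen, which was at 4.31 and 59.9 CPM in the 2 day 8 sets against 2.88 CPM on day 0, and whose log2 fold change of 3.47 was 0.58 without the second set. Pglyrp1, a peptidoglycan-binding granule protein gene, rose on day 10 (log2 fold change 1.20, SE 0.31, edgeR adjusted p = 0.0310), from 48.6 to 112 CPM, with 55.9 and 54.7 CPM on day 8. Cybb, the catalytic subunit of the phagocyte oxidase, fell on day 8 (-1.17, SE 0.26, edgeR adjusted p = 0.00312), and so did the haptoglobin gene Hp (-0.84, SE 0.27, edgeR adjusted p = 0.0477). The other gene that fell was Ly6g, named after its values were seen and low throughout (-3.26, or -4.74 without the first set and -2.60 without the second).

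Of 22 tested genes of interleukin 1, interleukin 6, G-CSF and NF-kappaB signalling, 4 rose and 4 fell on day 8 (median 0.29) and 1 rose on day 10 (median 0.57). As shares these are 18.2%, 18.2% and 4.55%, beside 2.61%, 3.02% and 0.687% of all genes tested. DESeq2 called 1 and 1 on day 8 and 0 on day 10. Il1r1, the interleukin 1 receptor gene, rose on day 8 (log2 fold change 2.26, SE 0.69, edgeR adjusted p = 0.0404), from 1.86 CPM to 12.3 and 5.52 CPM, and the value was 1.58 without the first set and 2.72 without the second. Socs3, a feedback inhibitor of STAT3 signalling, rose from 0.721 CPM to 6.23 and 4.69 CPM (2.91, SE 0.85, edgeR adjusted p = 0.0290) and had 5.94 CPM on day 10 but 0.524 CPM on day 12. The others, named after their values were seen, were Myd88 (1.19, and 1.27 on day 10, where it was the 1 called) and Stat3 (0.88). Il6ra, a receptor subunit for interleukin 6, fell on day 8 (-1.54, SE 0.29, edgeR adjusted p = 0.000257), as did the interleukin 1 receptor partner Il1rap (-1.31, SE 0.40, edgeR adjusted p = 0.0400). The granulocyte factor gene Cebpe (-1.19) and Cebpd (-0.91), named after their values were seen, fell as well.

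Of 24 tested glutathione genes, 2 rose and 3 fell on day 8 (median -0.02) and 1 rose on day 10 (median 0.28). As shares these are 8.33%, 12.5% and 4.17%, beside 2.61%, 3.02% and 0.687% of all genes tested. DESeq2 called 1 and 2 on day 8 and 1 higher on day 10. Gclm, a subunit of the enzyme that limits glutathione synthesis, stood at 72.2 CPM on day 0, 171 and 215 CPM in the day 8 sets, 219 CPM on day 10, 80.7 CPM on day 12 and 81.6 CPM on day 14. It rose on day 8 (log2 fold change 1.42, SE 0.28, edgeR adjusted p = 0.000771) and on day 10 (1.60, SE 0.31, edgeR adjusted p = 0.00182). Txnrd1, a thioredoxin reductase gene, rose on day 8 (0.93, SE 0.29, edgeR adjusted p = 0.0414, and 0.59 without the first set). The microsomal transferase genes Mgst2 (-2.16, SE 0.30) and Mgst1 (-1.21, SE 0.27) fell on day 8, beside Gstm2 (-2.69, or -3.88 without the first set and -2.06 without the second), which was named after its values were seen and may share reads with Gstm1.

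The lipid and iron lists were short, so 1 gene is a large share. On day 8, 3.70% of the sphingolipid and 7.14% of the iron genes tested were lower, beside 3.02% of all genes tested. On day 10, 7.14% of the iron genes were lower, beside 0.766%. Each of these shares rests on 1 gene. In these lists 0 genes were higher on either day, beside 2.61% and 0.687% of all genes tested. Of 27 sphingolipid genes, 1 fell on day 8 (median -0.11), the ceramidase gene Acer3 (-1.25, SE 0.27, edgeR adjusted p = 0.00170), and Degs1, the widespread relative of Degs2, stood at 63.6 to 106 CPM in the 6 sets. No sphingolipid gene passed edgeR on day 10, with 0 at an unadjusted p under 0.05 and 0 by DESeq2. Of 24 triglyceride and lipid droplet genes, 0 passed edgeR on day 8 or day 10, where 7 and 6 had an unadjusted p under 0.05 and 0 passed DESeq2 on either day. Of 14 iron and siderophore genes, Bdh2, an enzyme gene tied to a mammalian siderophore, fell on day 8 (-1.37, SE 0.30, edgeR adjusted p = 0.00228) and day 10 (-1.79, SE 0.37, edgeR adjusted p = 0.00320). Its day 8 value was -0.84 without the first set and -2.16 without the second. Bdh2 stood at 70.5, 15.7, 39, 20.3, 28.7 and 230 CPM in the order of sets, lowest where Slc34a2 was lowest and highest on day 14 as Slc34a2 was, and the part of that measure in its values was not tested. Slc22a17, a receptor gene for lipocalin 2, stood at 0.108 to 3.91 CPM. In the lists of CITED partners (6 tested), EMILIN relatives (4) and TGF-beta receptors bound by LRG1 (10), 0 genes passed edgeR on days 8 and 10, with 0 by DESeq2 and 3 and 4 at an unadjusted p under 0.05.

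On day 12 none of the 142 genes passed edgeR against day 0, where 0.0660% of all genes tested were higher and 0.106% lower. There were 13 at an unadjusted p under 0.05 and 0 by DESeq2, and the median was 0.03 against -0.01 over all genes. Between day 14 and day 8, within the male signal, 18 of the 142 were higher and 13 lower, where 7.58% and 6.58% of all genes tested were, with medians of 0.02 and -0.05. Gclm (-1.24) and Txnrd1 (-1.56) were among the lower and Bdh2 (3.07), Cybb (1.83), Mgst2 (1.79), Il6ra (1.33) and Acer3 (1.21) among the higher, each opposite to its direction in day 8 against day 0. These comparisons share the day 8 sets.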

How the data were processed

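Single GMPs were measured by full-length RNA sequencing (Smart-seq2 with Nextera XT, per the labels' protocols), in 6 sets of cells. The authors deposited raw read counts per gene, 1 table per set, made with GSNAP and HTSeq 0.5.3p3 on mm10, per the submitters' processing notes. Of 574 labelled cells, 573 had a column that their labels identify, and 1 column was not used. The 5 rows that name no gene, a median of 90.4% of a kept cell's total, and 92 spike-in rows were left out of library sizes. Symbols came from GENCODE names for 45143 of 46078 IDs. The kit does not mark strand and has no molecular identifiers. PCR copies are thus part of every count, and the intervals and limits of 0 (3 counts of the total) cover counting error only.

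Cells with at least 50000 reads and 1000 genes were kept, no doublet caller was run, and no 2 cells were identical. Counts were summed per set and TMM-scaled, and 15145 genes were fitted by day, those that passed filterByExpr and were detected in 10% or more of the cells of any set, with edgeR 4.0.16 (quasi-likelihood, R 4.3.3), with Benjamini-Hochberg adjustment over all of them and a threshold of 0.05. Only the 2 day 8 sets give a residual degree of freedom (1, with a prior of 51.5). SE is the log2 fold change divided by the square root of F. Shares and Spearman's rho used cells thinned to 50000 reads. DESeq2 1.42.0 was an alternative. The scripts were tested on simulated data (matplotlib 3.10.9, scipy 1.17.1, pandas 2.3.3, numpy 2.4.6, Python 3.11.15).

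The 9 genes and the gene lists were chosen with earlier results of these data known. In each list up to 4 called genes with the largest change and a read in at least 20% of cells of a set were named, and the 12 genes most like and 5 most opposite to Lcn2. The Elane threshold, partial rho (Spearman's rho given Elane), motifs, leaving out Slc34a2 and spike-in scaling were chosen after values were seen. The labels do not mention spike-ins, so an equal amount per well is an assumption.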

Additional observations from a re-analysis of the deposited data

Results flagged for a closer look

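Dmkn, Sgms2 and Gstm1 stood on opposite sides of day 0 on days 8 and 10, but for Dmkn and Sgms2 1 of the 2 differences was smaller than its SE. The log2 fold change was -0.14 (SE 0.27) for Dmkn on day 8 and 0.31 (SE 0.36) for Sgms2 on day 10, each against day 0. Both day 8 sets lay below day 0 and the day 10 set above it, for Dmkn at 40 and 43 against 45.8 and 114 CPM, for Sgms2 at 24.1 and 18.4 against 38.6 and 48.1 CPM, and for Gstm1 at 282 and 291 against 657 and 960 CPM. The log2 fold change of day 10 against day 8 was 1.45 (SE 0.26) for Dmkn, 1.18 (SE 0.30) for Sgms2 and 1.75 (SE 0.26) for Gstm1. The difference was not tested, since these genes were chosen on such values and day 10 has 1 set. Scaled by spike-in reads, day 8 against day 0 became 0.84 for Dmkn, 0.11 for Sgms2 and -0.21 for Gstm1.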

How the results depend on the processing

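No Lcn2 fold change changed sign under the alternatives run, and 24 of 33 stayed within the spread between the 2 day 8 sets. Shares, couplings and list counts were compared by size only, so their direction was not examined. Of the shares, 14 of 24 stayed within the binomial interval of the set, which covers counting error only. For the coupling, 14 of 24 stayed within the standard deviation of rho over the day 8 and day 10 sets. Of the list counts, 35 of 54 stayed within 1.5 times the count. For the other 8 genes 181 of 264 recomputed folds stayed within the day 8 spread, and the changes of sign were as follows. On day 8 against day 0, spike-in scaling gave 0.84 for Dmkn, 0.11 for Sgms2 and 0.23 for Cited4, and Cited4 was 0.41 in deeper cells (at least 200000 reads and 2000 genes) and 0.03 without the first day 8 set. In the deeper cells, Cited4 was 0.03 on day 12 and 0.63 on day 14 against day 10, and Sgms2 0.49 on day 14 against day 10. Lcn2 on day 8 against day 0 was 3.14 in the deeper cells and 3.69 scaled by spike-in reads, and 2.58 to 2.85 without 1 of the day 8 sets. On day 10 against day 0 it was 3.90, 3.16 in thinned cells and 4.03 by spike-in reads. Day 12 against day 10 was -2.54 thinned and -3.28 by spike-in reads, and day 14 against day 10 was -1.55 in the deeper cells, 4 of them on day 14, and -3.25 by spike-in reads. The share with an Lcn2 read was 16.3% on day 0, 68.8% on day 10 and 21.2% on day 12 at 20000 reads, and 82.2% in the first day 8 set without thinning. With at least 5 reads it was 4.35%, 38.9%, 33.3%, 53.8%, 7.06% and 8.51% in the order of sets. With Slc34a2 left out and cells thinned to 30000 reads it was 20.7%, 68.9%, 51.6%, 73.9%, 33.8% and 27.8% in the same order, with 80 cells left on day 12 and 36 on day 14. The lowest rho of Gstm1 with Lcn2 in the day 8 and day 10 sets, 0.52, was 0.38 at 20000 reads and 0.34 in the deeper cells. Of related genes, day 8 against day 0 gave 0 higher and 0 lower in thinned cells, 3 and 5 by DESeq2, and 6 lower with no gene filter and 4 lower in the deeper cells. Day 10 against day 0 gave 0 and 0 in thinned cells, 1 and 0 by DESeq2, and 3 lower with no filter, 2 with all cells and 0 in the deeper cells. Day 12 against day 0 gave 2 higher with no filter and 1 lower in the deeper cells. Day 14 against day 8 gave 0 and 0 in thinned cells and 8 lower by DESeq2. In the deeper cells it gave 18 higher and 22 lower, against 18 and 13 in the main fit, so the larger side changed. The thinned fit called 0 of these genes in every comparison and its calls over all genes were not counted, so its 0 is not read further. The cause of these shifts was not tested. No paired analysis was possible because only day 8 has numbered sets. Without 1 of them no residual degree of freedom is left, so list counts could not be tested then. Depth limits day 14 most, with 47 kept cells, and genes with few reads such as Degs2 and Lrg1.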

Other observations

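Some of the 12 genes most like Lcn2 over cells had another course between sets. Ctsg, the cathepsin G gene, had 8859 CPM on day 0, 7554 and 7027 CPM in the day 8 sets and 13621 CPM on day 10. Ms4a3, a membrane protein gene of granulocyte-monocyte progenitors, stood at 1165 CPM on day 0, 1495 and 1492 CPM in the day 8 sets, 2451 CPM on day 10, 1347 CPM on day 12 and 1454 CPM on day 14. Both were highest on day 10, as Lcn2 was, but neither stood several-fold above day 0. Mpo had 22882 and 14518 CPM in the day 8 sets against 50756 CPM on day 0 and 48985 CPM on day 10.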
